A study of Mus musculus with 32 samples.

Results

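The MS4A family (membrane-spanning 4-domains, subfamily A) was followed in BV-2, a mouse microglial line grown in culture. Its members here were the 6 genes Ms4a4c, Ms4a6b, Ms4a6c, Ms4a6d, Ms4a7 and Ms4a14, chosen by name out of 45706 genes in the count table. Another 13 Ms4a genes stood in the table. Total RNA was sequenced from 32 libraries in 8 groups of 4. VEH_scramble cells received vehicle and a scramble mimic, and LPS_scramble cells received lipopolysaccharide (LPS, a bacterial cell wall component) at 10 ng/ml for 24 h with the same scramble mimic. VEH_miR-7a, VEH_miR-29a and VEH_miR-146a cells received vehicle and a mimic of the microRNA in their name (the -5p arm of miR-7a and miR-146a, the -3p arm of miR-29a), and LPS_miR-7a, LPS_miR-29a and LPS_miR-146a cells the same mimics with LPS. A mimic is a synthetic RNA that acts as the mature microRNA, whose level in the cells was not analysed here. All groups came from 1 cell line, labelled wild type, and the labels and the study's methods differ on whether LPS came before or after transfection. The same 4 scramble libraries served as control for all 3 mimics within a condition. Replicate numbers 1 to 4 come from the sample titles, and the study calls its replicates independent experiments.

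MS4A proteins cross the membrane repeatedly with both ends in the cytoplasm, and several of them act as partners of larger receptors. Ms4a1 encodes CD20 of B cells, and Ms4a2 encodes the beta subunit of the IgE receptor of mast cells. In the brain, MS4A genes of the Ms4a4 and Ms4a6 branches are expressed in microglia and macrophages, Ms4a7 is used as a marker of the macrophages at brain borders, and the human MS4A locus is linked to Alzheimer's disease risk and to the level of soluble TREM2. A microRNA lowers its target messenger RNAs by pairing its seed, bases 2 to 8, with sites that lie mostly in the 3′ UTR.

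The seeds of the 3 mimics are shown because they define which member transcripts could pair with them. The mature sequences are from RefSeq (GRCm38.p6), with the seed in capitals, and no seed is shared between the mimics.
mmu-miR-7a-5p: uGGAAGACuagugauuuuguugu
mmu-miR-29a-3p: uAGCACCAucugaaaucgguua
mmu-miR-146a-5p: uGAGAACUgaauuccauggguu

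Among the 3′ UTRs of the 6 members, 1 match to 1 seed was found. It lies in the 3′ UTR of Ms4a4c, at base 648 of 910, and its letters (TGGTGCT) pair with the seed of miR-29a.
Ms4a4c 3′ UTR: taactgtggttTGGTGCTgtaatctcccc
The other 5 members held no match to any of the 3 seeds, read as 7 letters on the transcript strand. For each gene only the transcript with its longest coding sequence was read. Over 20624 genes with an annotated 3′ UTR, 10.5% held a match for miR-7a, 11.8% for miR-29a and 10.0% for miR-146a.

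The members lie together on chromosome 19 (GRCm38), within 303.6 kb from 11301249 to 11604849. Ms4a14 (11301249 to 11314454) and Ms4a7 (11321039 to 11336146) run on the minus strand at one end of this stretch. Ms4a4c (11404770 to 11427246), Ms4a6c (11469366 to 11482192) and Ms4a6b (11516512 to 11531256) run on the plus strand in the middle. Ms4a6d (11586604 to 11604849), on the minus strand, stands at the other end. All 6 are annotated as protein-coding. An opposite-strand gene overlaps Ms4a4c (Gm5692), Ms4a6c (BE692007) and Ms4a6b (Gm19261), with mean levels of 0.249, 1.94 and 0.0882 CPM (the count scaled to the library's total after TMM normalization). Whether reads were counted by strand is not given in the sources used here.

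**Figure D1:**
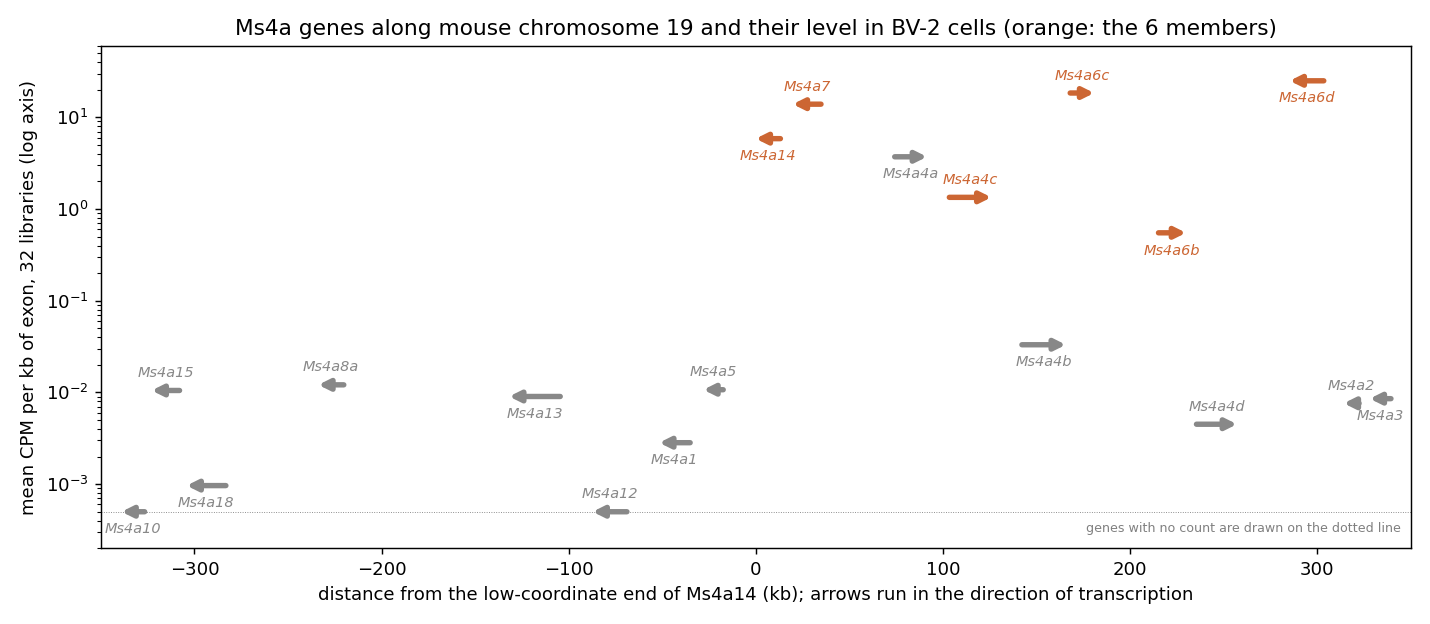
Ms4a genes by distance in kb from the low-coordinate end of Ms4a14 (x axis) and by mean CPM per kb of exon over 32 libraries on a log axis (y axis), with arrows in the direction of transcription. The 6 members, in orange, range from 0.55 CPM per kb for Ms4a6b to 25 for Ms4a6d, and among the other genes only Ms4a4a, at 3.71, lies within that range.

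Several members are close copies, which bears on how reads were assigned. The coding sequence of Ms4a4c is 91.8% identical to that of Ms4a4b and 85.8% to that of Ms4a4d. Ms4a6b is 80.2% identical to Ms4a6d and 74.6% to Ms4a6c, and Ms4a6c is 67.3% identical to Ms4a6d. A stretch of identical coding sequence is shown for Ms4a4c with its closest copy and for Ms4a6d with both Ms4a6 genes, because a read of 75 bases inside the longer ones cannot be assigned to 1 gene. A run of 57 bases that Ms4a4c shares with Ms4a4d is not shown. Nor is a run of 96 bases outside the coding sequence, in the last exons of Ms4a6b and Ms4a6c, which is longer than a read. The first run shown joins exons 5 and 6 of Ms4a4c and Ms4a4b. The second joins exons 3 and 4 of Ms4a6b, or 2 and 3 of Ms4a6d, and holds at its start the third, of exon 2 of Ms4a6c.
Ms4a4c and Ms4a4b, 127 bases: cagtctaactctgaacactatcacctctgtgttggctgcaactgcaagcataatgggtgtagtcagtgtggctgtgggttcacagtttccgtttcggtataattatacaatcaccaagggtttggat
Ms4a6b and Ms4a6d, 81 bases: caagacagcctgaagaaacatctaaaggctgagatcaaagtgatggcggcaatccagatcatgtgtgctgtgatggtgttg
Ms4a6c and Ms4a6d, 44 bases: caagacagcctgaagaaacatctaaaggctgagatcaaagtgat
Stretches of 75 bases were taken from the transcript with the longest coding sequence of each gene. Of all these, Ms4a4c shared 3.94% with another gene, Ms4a6c 3.23% (with Ms4a6b and Prdm11), Ms4a6b 1.11% and Ms4a6d 0.52%. Ms4a7 and Ms4a14 shared none (0 of 1502 and 0 of 3977 stretches), and their further transcripts were not read.

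The deposited values are estimated counts whose decimal marks had been lost, so that Ms4a4c in replicate 1 of LPS_miR-7a was deposited as 101876 and reads as 101.876. Decimals had been lost in 0 of 32 values of Ms4a14 and in 7 of 32 of Ms4a7. They had been lost in 7 of 32 values of Ms4a4c, 26 of Ms4a6d, 28 of Ms4a6c and 29 of Ms4a6b. After the marks were restored by level and digits, 4 values of Ms4a6b stayed uncertain and none of the other 5 members. The uncertain libraries were LPS_scramble replicate 4, VEH_miR-29a replicate 3 and LPS_miR-29a replicates 2 and 4, and Ms4a6b was left out of each comparison that used them.

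The sequence before the gene start is shown as background to the LPS comparisons, and whether any motif bears on them was not tested. Each run gives the 100 bases before the RefSeq gene start (GRCm38.p6), 5′ to 3′ on the gene's strand, with the letters GGAAGT, the core bound by PU.1 and other ETS factors, or their reverse complement ACTTCC in capitals.
Ms4a4c (plus strand, chr19:11407561-11407660): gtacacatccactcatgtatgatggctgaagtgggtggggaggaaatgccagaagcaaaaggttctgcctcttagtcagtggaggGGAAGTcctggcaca
Ms4a6c (plus strand, chr19:11469268-11469367): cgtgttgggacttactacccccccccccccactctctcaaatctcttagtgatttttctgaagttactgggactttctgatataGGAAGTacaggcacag
Ms4a6b (plus strand, chr19:11518459-11518558): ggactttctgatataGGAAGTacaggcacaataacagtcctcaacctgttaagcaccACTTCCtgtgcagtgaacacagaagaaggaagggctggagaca
Ms4a7 (minus strand, chr19:11336147-11336246): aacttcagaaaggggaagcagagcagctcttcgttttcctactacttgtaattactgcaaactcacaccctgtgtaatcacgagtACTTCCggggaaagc
Ms4a14 (minus strand, chr19:11314455-11314554): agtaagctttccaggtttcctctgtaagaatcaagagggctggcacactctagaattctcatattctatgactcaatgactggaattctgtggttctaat
Ms4a6d was not scanned. The ETS core stood once in the 300-base window of Ms4a4c and of Ms4a7, and 2 times in those of Ms4a6c and Ms4a6b. It was not found in that of Ms4a14 or at a further start of Ms4a7, and stood in 23.8% of all 32851 promoter windows of 300 bases, both strands read. Ms4a6b and Ms4a6c share 48 identical bases that hold this core, from 49 to 2 bases before the start of Ms4a6c and from 118 to 71 bases before that of Ms4a6b. GGG and CC with any 5 bases between them, an NF-kappa-B core, matched in Ms4a4c, where they overlap the ETS core, and in Ms4a6c, against 50.8% of all windows. The interferon-stimulated response element core, GAAA and GAAA with any 2 bases between them (3.4% of windows), and the STAT core TTCNNNGAA (8.3%) matched in none of the windows of these 5 members.

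Library totals of restored counts ran from 1163140 to 9739736 under VEH and from 2772061 to 20854891 under LPS. A count of 3 therefore stood for 0.134 to 3.74 CPM. Replicates 2, 3 and 4 of VEH_miR-7a stood apart, with 33.8 to 36.7% of their counts in small structural RNAs, against 4.07% in replicate 1 and 2.47 to 17.2% in the other groups. In scramble cells this share was 6.66 to 11.9% under VEH and 3.02 to 5.92% under LPS. The labels name the cells a glioblastoma line, but all 12 microglia and macrophage markers were detected, with a summed level of 3090 to 5760 CPM in a library. Csf1r and Adgre1 averaged 639 and 768 CPM, while the homeostatic genes Cx3cr1, P2ry12 and Tmem119 averaged 0.806, 5.43 and 2.92 CPM. Markers of astrocytes and glioma cells summed to at most 1.33 CPM. B cell markers reached at most 3.15 CPM, T cell markers 2.71, mast cell markers 1.25 and neutrophil markers 0.472. In such bulk samples fewer expressing cells and less RNA per cell cannot be told apart.

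Levels of the members were compared per kb of all annotated exons and, as an alternative added after seeing the data, per kb of the coding transcript. Both lengths are 4065 bases for Ms4a14, but for Ms4a7 they are 4453 and 1576 bases, because its exons include a retained intron. Per kb of exon, Ms4a6d stood at 25 ± 9.71 CPM (SD, n = 32 libraries), Ms4a6c at 18.4 ± 6.41 and Ms4a7 at 13.9 ± 6.63. Per kb of coding transcript they stood at 30.6 ± 11.9, 20.4 ± 7.13 and 39.3 ± 18.7 CPM. Ms4a7 was thus the lowest of these 3 on the first length and the highest on the second, so their order was not settled. Ms4a14 followed with 5.85 ± 3.11 CPM per kb on both lengths. Ms4a4c (1.34 ± 2.4 and 1.36 ± 2.44) and Ms4a6b (0.55 ± 0.346 and 0.921 ± 0.579) were the lowest on both. Per kb of exon, Ms4a6d exceeded 94.4%, Ms4a7 89.7% and Ms4a6b 58% of all genes with a value.

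The summed level of the 6 members was lowest in VEH_miR-29a, at 32.9 ± 10.3 CPM per kb of exon (SD, n = 4), and 38.2 ± 8 in VEH_scramble. It was 53.8 ± 6.44 in VEH_miR-7a and 65.9 ± 12.2 in VEH_miR-146a. Under LPS the sum was 67.6 ± 8.83 with miR-29a, 71.8 ± 10.1 with scramble, 81.7 ± 22.1 with miR-146a and 108 ± 16 with miR-7a. Per kb of coding transcript the sum was again lowest in VEH_miR-29a (48.3 ± 15) and highest in LPS_miR-7a (163 ± 22.7). The mean share of Ms4a7 ran from 12.6 to 30.3% over the groups per kb of exon and from 25.9 to 51.4% per kb of coding transcript, in both cases lowest in LPS_miR-29a and highest in VEH_miR-7a. The ratio of Ms4a6d to Ms4a6c in a library had a median of 1.3 over the 32 libraries per kb of exon and of 1.43 per kb of coding transcript. The size of such a ratio depends on the lengths, but how it compares between groups does not. The ratio of Ms4a7 to Ms4a6d, per kb of exon, was 0.933 ± 0.144 in VEH_miR-7a and 0.276 ± 0.0112 in LPS_miR-29a, against 0.442 ± 0.0348 in VEH_scramble and 0.592 ± 0.0813 in LPS_scramble.

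**Figure D2:**
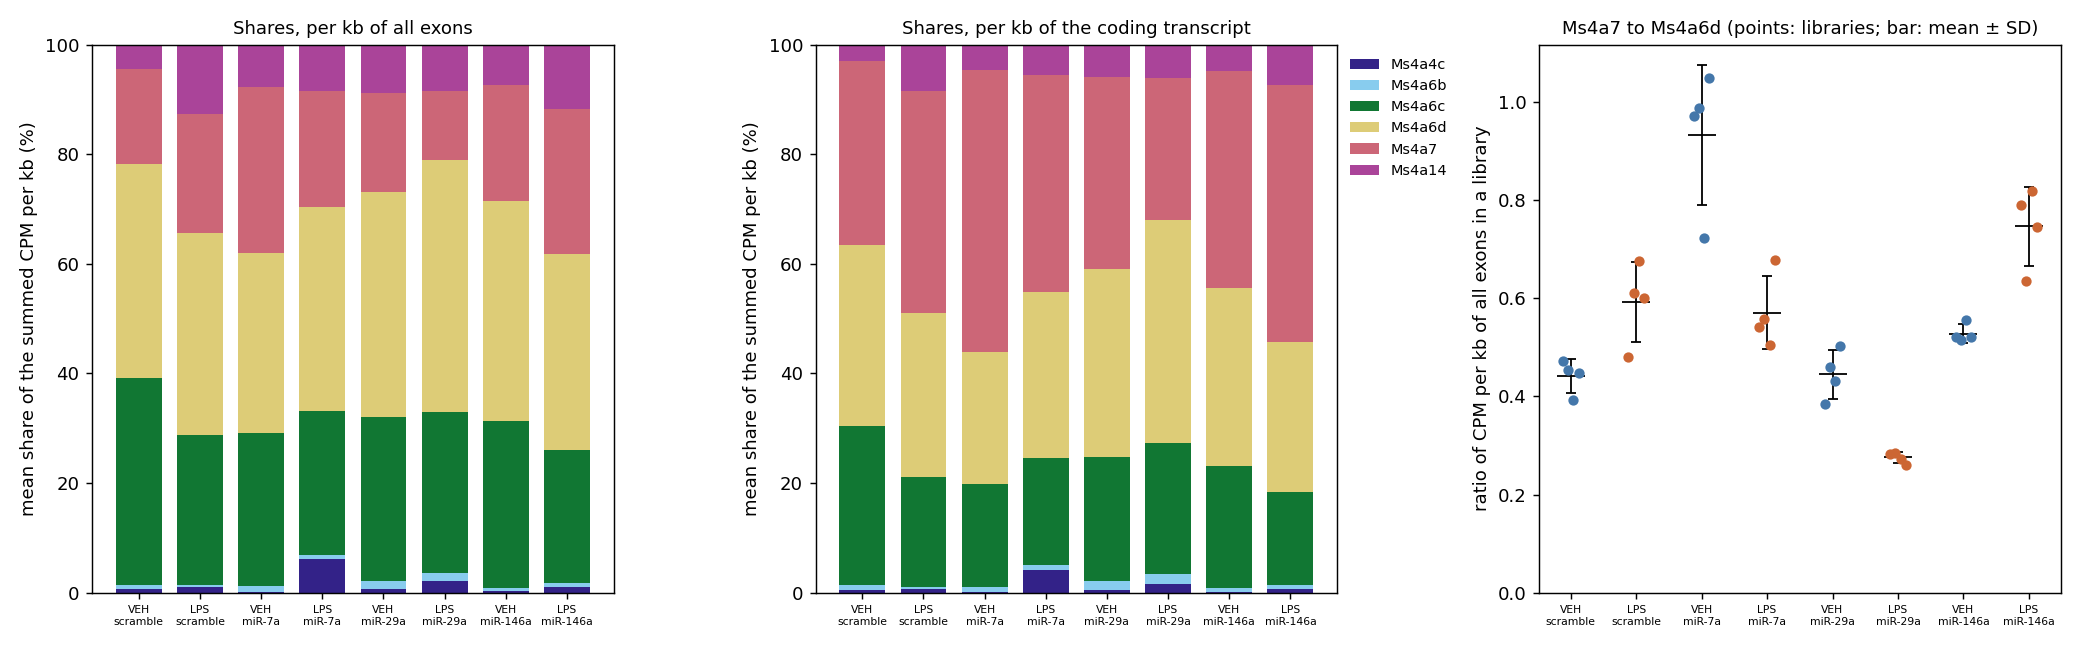
Mean share of each member in the summed CPM per kb of the 6 members (%, n = 4 libraries per group), per kb of all exons (left) and of the coding transcript (middle). Right, ratio of Ms4a7 to Ms4a6d in CPM per kb of exon in each library (points, blue VEH and orange LPS; bars, mean ± SD). The 4 libraries of LPS_miR-29a lie between 0.261 and 0.285, below those of the other groups, and those of VEH_miR-7a reach 1.05.

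The response to LPS was compared within each mimic, by limma on voom weights with Benjamini-Hochberg adjustment over all genes tested. A gene is said to rise or fall where its adjusted p was under 0.05 and its log2 fold change beyond 0.3 in size. An earlier analysis of these data had singled out Ms4a14 between VEH_miR-146a and VEH_scramble and Ms4a4c between LPS_miR-7a and LPS_scramble. Values of these genes that reuse those libraries are therefore descriptions with no p, and stand outside the counts. The same holds for Ms4a4c in miR-29a cells, where it passed the count filter through its LPS libraries alone. In scramble cells 17.8% of 12215 genes passed, 9.52% as higher, and 2 of 3 tested members rose (Ms4a7 and Ms4a6d). In miR-7a cells 6.77% of genes passed, 2.78% as higher, and 3 of 5 tested members rose (Ms4a6c, Ms4a6d and Ms4a14). Without VEH_miR-7a replicate 1 none of these 3 passed (limma adjusted p = 0.0629, 0.058 and 0.0547). In miR-29a cells 26.5% passed, 12.8% as higher, and 3 of 4 tested members rose, again Ms4a6c, Ms4a6d and Ms4a14. In miR-146a cells 4.61% passed, 3.09% as higher, and 0 of 4 tested members passed by limma, edgeR or DESeq2 in unpaired fits. At an unadjusted limma p under 0.05 there was 1 of these 4, Ms4a7, beside 18.1% of all genes. With the replicate number as a block, which pairs these libraries, Ms4a7 passed in miR-146a cells (0.61, limma adjusted p = 0.0275). It also passed so in miR-29a cells (0.51, limma adjusted p = 0.0129). In miR-146a cells the block raised the calls over all genes as well. The median log2 fold change of the tested members was 0.83, 0.86, 1.02 and 0.16 in scramble, miR-7a, miR-29a and miR-146a cells, beside medians of 0.01, 0.02, -0.01 and 0 over all genes tested. These medians cover different members and do not compare the mimics. Ms4a14 counts only in miR-7a and miR-29a cells, and Ms4a6b only in miR-7a and miR-146a cells.

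**Figure D3:**
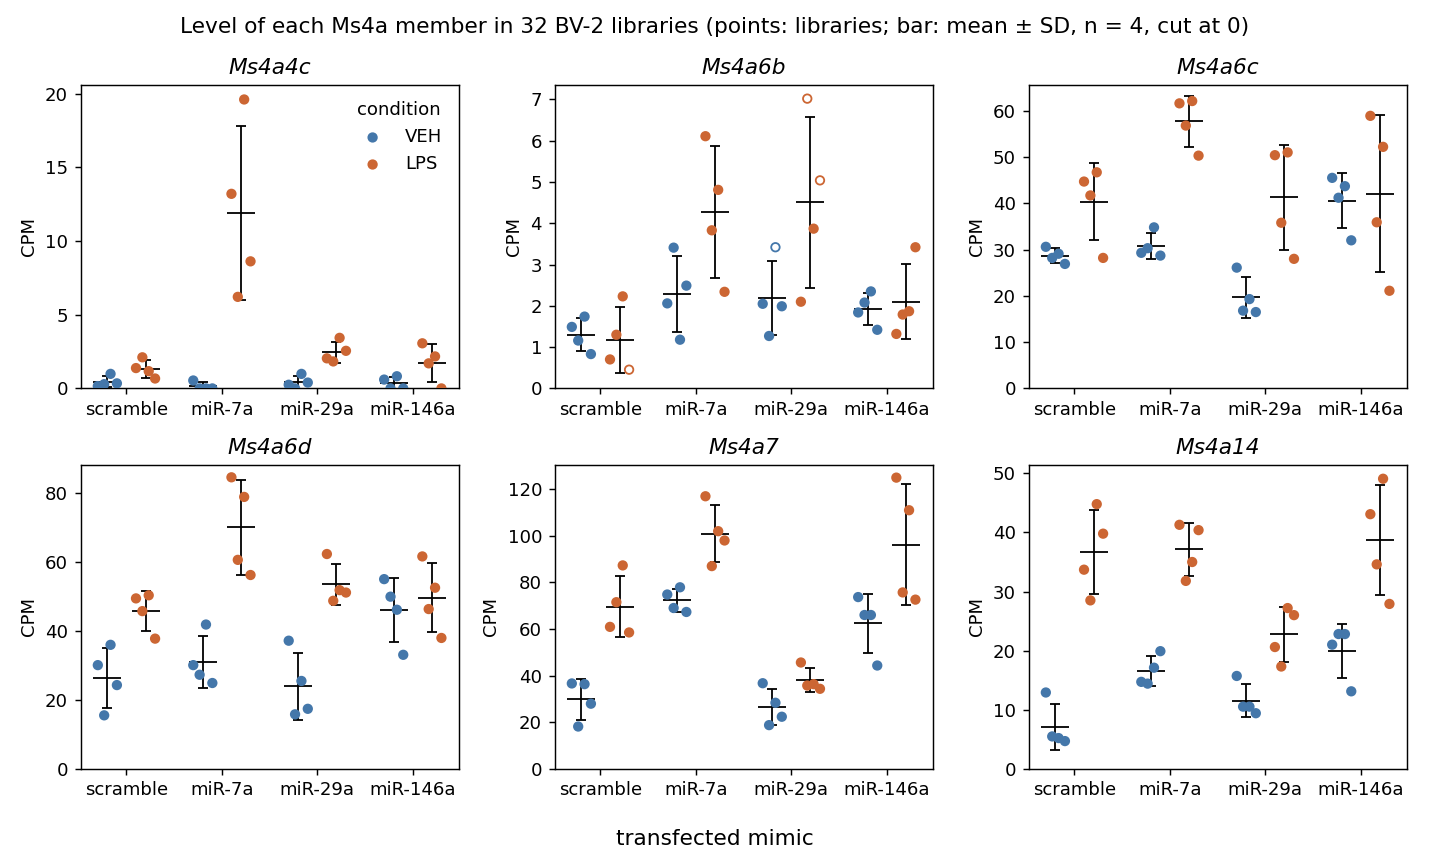
CPM of each member (y axes, linear) in the 32 libraries by mimic (x axis), in VEH (blue) and LPS (orange); bars give mean ± SD of 4 libraries, and open points are the 4 uncertain values of Ms4a6b. LPS libraries of Ms4a14 lie above the VEH libraries with every mimic, and the LPS_miR-7a libraries of Ms4a4c, at 6.21 to 19.6 CPM, lie above all others.

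Ms4a14, a little-studied member with the longest coding sequence of the 6 (3699 bases), rose under LPS in miR-7a and miR-29a cells. In VEH_scramble the 4 libraries held 12.9, 5.46, 5.18 and 4.67 CPM, and in LPS_scramble 33.7, 28.5, 44.8 and 39.8 CPM. The groups did not overlap, and VEH replicate 1 stood above the other VEH libraries. The log2 fold change of 2.48 ± 0.3 (SE, n = 4 and 4) is a description, since the low values of these VEH_scramble libraries were part of how Ms4a14 was singled out. In VEH_miR-7a the libraries held 14.7, 14.4, 17.1 and 19.9 CPM and in LPS_miR-7a 41.3, 31.8, 35 and 40.4 CPM, again without overlap. The rise with miR-7a was 1.18 ± 0.21 (limma adjusted p = 0.00649), and without VEH_miR-7a replicate 1, which leaves the 3 libraries rich in structural RNA, it was 1.06 with an adjusted p of 0.0547 by limma. With miR-29a, 15.7, 10.5, 10.5 and 9.39 CPM under VEH stood against 20.6, 17.3, 27.2 and 26 CPM under LPS, all LPS libraries above all VEH libraries. Its log2 fold change there was 1 ± 0.23 (limma adjusted p = 0.00856). With miR-146a, 21, 22.8, 22.8 and 13.1 CPM stood against 43.1, 34.6, 49.1 and 27.9 CPM, and the lowest LPS library still exceeded the highest VEH library. The log2 fold change of 1.04 ± 0.23 is again a description, as the VEH_miR-146a libraries are also those in which Ms4a14 had been singled out.

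Ms4a7, the border macrophage marker, rose in scramble cells. The VEH_scramble libraries held 36.6, 18.1, 36.3 and 27.9 CPM and the LPS_scramble libraries 60.9, 71.5, 87.3 and 58.5 CPM, without overlap. The log2 fold change was 1.26 ± 0.22, or 2.4-fold (limma adjusted p = 0.00307), and it passed with any 1 library left out. With miR-7a the VEH libraries already held 74.8, 69, 77.9 and 67.3 CPM, and the LPS libraries 117, 87, 102 and 98 CPM. These groups did not overlap either, but the difference of 0.42 ± 0.15 did not pass (limma adjusted p = 0.134). With miR-29a, 36.7, 18.7, 28.3 and 22.3 CPM under VEH stood against 45.6, 35.7, 36.3 and 34.3 CPM under LPS, and the ranges overlapped. Without a block it differed by 0.52 ± 0.19 on the log2 scale (limma adjusted p = 0.0612), and with the replicate number as a block, which pairs these libraries, it was 0.51 with a limma adjusted p of 0.0129. With miR-146a, 73.7, 66, 66 and 44.3 CPM stood against 125, 75.7, 111 and 72.6 CPM, where the ranges met between VEH replicate 1 and LPS replicate 4. In the unpaired fit it differed by 0.69 ± 0.21 (limma adjusted p = 0.0861), and in the paired fit 0.61 with a limma adjusted p of 0.0275.

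Ms4a6d, a macrophage member of the Ms4a6 branch, rose in scramble, miR-7a and miR-29a cells. In VEH_scramble it stood at 30.1, 15.5, 36 and 24.3 CPM and in LPS_scramble at 49.5, 45.8, 50.4 and 37.8 CPM, without overlap. The log2 fold change was 0.83 ± 0.22 (limma adjusted p = 0.0254), but it missed the threshold without 1 of 4 libraries, VEH_scramble replicate 4 or LPS_scramble replicates 1, 2 or 3 (limma adjusted p up to 0.076). With miR-7a, 30.1, 27.3, 41.9 and 24.9 CPM under VEH stood below 84.7, 60.7, 79 and 56.3 CPM under LPS. The rise was 1.1 ± 0.22 (limma adjusted p = 0.011), and 1.05 with an adjusted p of 0.058 by limma without VEH_miR-7a replicate 1. With miR-29a, 37.2, 15.8, 25.5 and 17.4 CPM stood below 62.4, 48.8, 51.9 and 51.2 CPM, and the rise was 1.22 ± 0.22 (limma adjusted p = 0.00201). In miR-146a cells the VEH libraries held 55.1, 50, 46.2 and 33.1 CPM and the LPS libraries 61.7, 46.4, 52.6 and 38 CPM. These ranges overlapped and the difference was 0.22 ± 0.18 (95% interval -0.18 to 0.62, limma adjusted p = 0.592).

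Ms4a6c, a plus-strand member of the same branch, rose in miR-7a and miR-29a cells. In VEH_scramble it stood at 30.6, 28.2, 29.1 and 26.9 CPM, and in LPS_scramble at 44.7, 41.7, 46.7 and 28.2 CPM. LPS_scramble replicate 4 lay within the VEH range, and the log2 fold change was 0.46 ± 0.19 (limma adjusted p = 0.11). Without that library it was 0.64 with a limma adjusted p of 0.0312. With miR-7a, 29.3, 30.3, 34.8 and 28.7 CPM under VEH stood below 61.6, 56.8, 62.1 and 50.3 CPM under LPS. The rise was 0.86 ± 0.17 (limma adjusted p = 0.0101), and 0.8 with an adjusted p of 0.0629 by limma without VEH_miR-7a replicate 1. With miR-29a, 26.1, 16.8, 19.3 and 16.5 CPM stood below 50.4, 35.8, 51 and 28 CPM, and the rise was 1.05 ± 0.24 (limma adjusted p = 0.00705). In miR-146a cells, 45.5, 41.2, 43.7 and 32 CPM under VEH and 58.9, 35.9, 52.2 and 21.1 CPM under LPS overlapped widely, with a difference of 0.11 ± 0.26 (95% interval -0.44 to 0.66, limma adjusted p = 0.873).

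Ms4a4c, the plus-strand copy of Ms4a4b, was near the limit of detection under VEH. The VEH_scramble libraries held 1, 1, 4 and 3 counts and the LPS_scramble libraries 4, 32, 17 and 15, or 0.157 to 0.987 against 0.672 to 2.11 CPM. These ranges overlapped and Ms4a4c was not tested there because too few libraries held enough counts. In VEH_miR-7a it held 3 counts in replicate 1 and 0 in the other 3 libraries, where 3 counts would stand for 1.77 to 3.74 CPM. In LPS_miR-7a it held 13.2, 6.21, 19.6 and 8.62 CPM, above every VEH library. The pooled counts were 534 under LPS and 3 under VEH, a ratio of 37.6 in CPM with an exact 95% counting interval of 12.8 to 183. That interval covers counting error alone, not the spread between libraries, and is no test. The fitted log2 fold change of 4.51 ± 0.85 depends on the prior count given to libraries at 0. It is a description, for the reason given above. With miR-29a it held 0.249, 0, 0.986 and 0.396 CPM under VEH and 2.04, 1.83, 3.43 and 2.55 CPM under LPS. The groups did not overlap, and the pooled ratio was 5.48 (125 against 11 counts, counting interval 2.96 to 11.3, again no test). All 4 LPS libraries and 0 of the 4 VEH libraries reached the minimum of the count filter, so that a gene admitted in this way had to differ, and the fitted log2 fold change of 2.58 ± 0.53 is a description. In miR-146a cells, 9 counts over the VEH libraries stood against 70 over the LPS libraries, with LPS replicate 4 at 0, and the gene did not pass the count filter.

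Ms4a6b, the lowest member per length, stood between 0.454 and 7.02 CPM in the 32 libraries. It was tested under LPS in miR-7a cells, with 2.06, 3.41, 1.18 and 2.49 CPM against 6.11, 3.83, 4.81 and 2.34 CPM. The ranges overlapped and the log2 fold change was 0.73 ± 0.51 (limma adjusted p = 0.478). In miR-146a cells its difference was -0.1 ± 0.44 (limma adjusted p = 0.94). With scramble, keeping the uncertain value at its more probable reading gave a log2 fold change of -0.33 and the other reading 0.83, so its direction could not be read. In miR-29a cells the more probable readings gave 0.99 and the others 0.15. Against scramble under LPS they gave 1.95 and 0.8 with miR-7a, 2.14 and -0.67 with miR-29a and 0.9 and -0.34 with miR-146a. For the interactions they were 1.09 and -0.08, 1.34 and -0.69, and 0.23 and -0.99, in the same order of mimics.

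**Figure D4:**
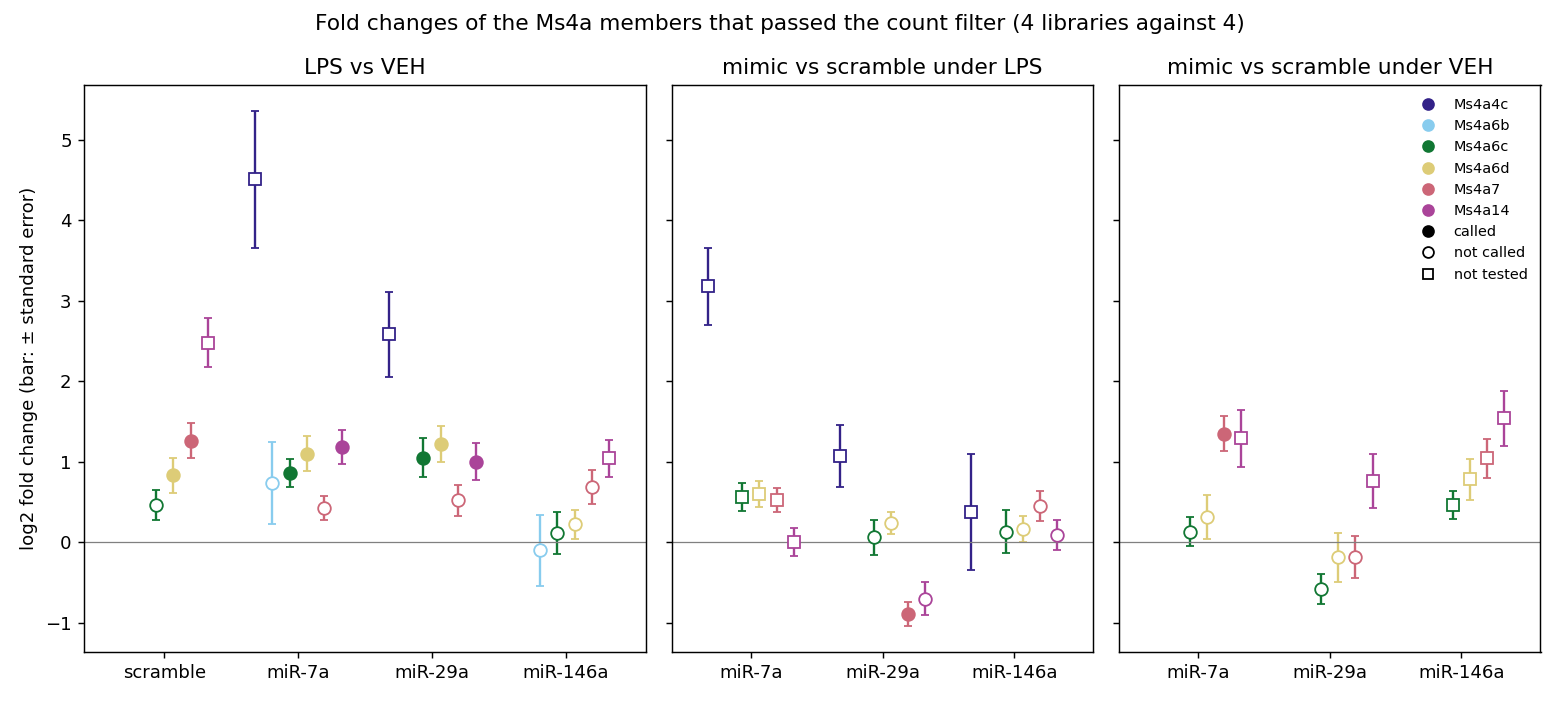
Log2 fold changes (y axis, bars ± standard error) of the members that passed the count filter, for LPS against VEH by mimic (left) and for each mimic against scramble under LPS (middle) and VEH (right). Filled circles passed the threshold, open circles did not, and squares are values given without a test. Ms4a14 is filled with miR-7a and miR-29a on the left, and the lowest point is Ms4a7 with miR-29a under LPS, at -0.89.

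Mimics were next compared with scramble. Under LPS, Ms4a7 was lower with miR-29a. The 4 libraries held 45.6, 35.7, 36.3 and 34.3 CPM, below the 60.9, 71.5, 87.3 and 58.5 CPM of LPS_scramble. The groups did not overlap, and the log2 fold change was -0.89 ± 0.15, a ratio of 0.54 (limma adjusted p = 0.0112), where 4.8% of 13091 genes passed, 2.64% as lower. It passed with any 1 library left out. Ms4a7 held no match to the miR-29a seed in its 3′ UTR of 478 bases. The microglia and macrophage markers summed to 3090 to 3890 CPM in LPS_miR-29a and to 3900 to 4700 CPM in LPS_scramble. How this bears on Ms4a7 was not tested. Ms4a14 was lower in each of the 4 LPS_miR-29a libraries than in any LPS_scramble library (17.3 to 27.2 against 28.5 to 44.8 CPM). Its log2 fold change of -0.7 ± 0.2 did not pass (limma adjusted p = 0.0659), and in the fit that pairs the libraries by number it was -0.68 with a limma adjusted p of 0.00718. Ms4a4c, which holds the miR-29a seed match, was 1.07 ± 0.39 higher with ranges that overlapped, a description because it reuses the LPS_scramble libraries. Ms4a6c and Ms4a6d differed by 0.06 ± 0.22 and 0.24 ± 0.14, with ranges that overlapped, and Ms4a6b held uncertain values in both groups.

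With miR-146a under LPS, 0 of 4 tested members passed by limma, beside 2.33% of 12513 genes, and edgeR and DESeq2 also called 0. At an unadjusted limma p under 0.05 there was 1 of 4, Ms4a7, with a log2 fold change of 0.45 ± 0.19 (adjusted p = 0.26), beside 17.5% of all genes. The 95% intervals of the other tested members held 0. They ran from -0.33 to 0.52 for Ms4a14, from -0.18 to 0.5 for Ms4a6d and from -0.46 to 0.71 for Ms4a6c. Ms4a4c, as a description, differed by 0.38 ± 0.72 with ranges that overlapped.

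With miR-7a under LPS, values are given without a test, because Ms4a4c had been singled out in this comparison. Its LPS_miR-7a libraries, at 6.21 to 19.6 CPM, stood above all LPS_scramble libraries, at 0.672 to 2.11 CPM, and the log2 fold change was 3.18 ± 0.48. Ms4a4c holds no match to the miR-7a seed. Ms4a6c and Ms4a6d were 0.56 ± 0.17 and 0.6 ± 0.16 higher, and their libraries did not overlap those of LPS_scramble. Ms4a7 was 0.52 ± 0.15 higher, with LPS_miR-7a replicate 2 at 87 CPM and LPS_scramble replicate 3 at 87.3 CPM. Ms4a14 did not share this difference, at 37.1 ± 4.52 against 36.7 ± 7.13 CPM (SD, n = 4). Over all genes, 2.82% passed in this comparison, and 2241 of 12899 had an unadjusted limma p under 0.05. The share of all genes without overlap is not given.

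Under VEH, Ms4a7 was higher with miR-7a. The VEH_miR-7a libraries, at 67.3 to 77.9 CPM, stood above all VEH_scramble libraries, at 18.1 to 36.6 CPM. The log2 fold change was 1.35 ± 0.22, or 2.55-fold (limma adjusted p = 0.0296), where 0.234% of 11097 genes passed, 0.117% as higher. The call was lost without VEH_scramble replicate 4 (limma adjusted p = 0.139) and without VEH_miR-7a replicate 2, 3 or 4 (adjusted p = 0.119, 0.119 and 0.0694), the libraries rich in structural RNA, while replicate 1, which was not, held 74.8 CPM. Ms4a14 was 1.29 ± 0.35 higher, without overlap (14.4 to 19.9 against 4.67 to 12.9 CPM), a description because it reuses the VEH_scramble libraries. Ms4a6c and Ms4a6d differed by 0.13 ± 0.18 and 0.31 ± 0.27 and overlapped. Ms4a4c (0 to 0.538 against 0.157 to 0.987 CPM) and Ms4a6b (1.18 to 3.41 against 0.832 to 1.74 CPM) did not pass the count filter.

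With miR-29a under VEH, 0 of 3 tested members passed by limma, beside 0.0429% of 11650 genes, and edgeR and DESeq2 also called 0. At an unadjusted limma p under 0.05 there was 1 of 3, Ms4a6c, beside 10.3% of all genes. It was lower in each of the 4 libraries than in any VEH_scramble library (16.5 to 26.1 against 26.9 to 30.6 CPM), with a log2 fold change of -0.58 ± 0.19 (adjusted p = 0.323). Ms4a14, as a description, was 0.76 ± 0.33 higher with ranges that overlapped. Ms4a7, which was lower with this mimic under LPS, differed here by -0.18 ± 0.26 (95% interval -0.74 to 0.39), and Ms4a6d by -0.19 ± 0.3. Ms4a4c, at 0 to 0.986 CPM, did not pass the count filter and Ms4a6b held an uncertain value.

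With miR-146a under VEH no test is given, because Ms4a14 had been singled out there. Its libraries held 21, 22.8, 22.8 and 13.1 CPM, all above the 12.9 CPM of the highest VEH_scramble library, and the log2 fold change was 1.54 ± 0.34. Ms4a7 was 1.04 ± 0.24 and Ms4a6c 0.46 ± 0.17 higher, also without overlap. Ms4a6d was 0.78 ± 0.25 higher and overlapped with scramble through VEH_miR-146a replicate 4 (33.1 CPM). Ms4a4c (0 to 0.825 CPM) and Ms4a6b (1.42 to 2.35 CPM) did not pass the count filter. Over all genes 2.03% passed, and 2957 of 11756 had an unadjusted limma p under 0.05. The share of all genes without overlap is not given here.

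Whether a mimic changed the response to LPS was tested as an interaction. None of the 3 tested members (Ms4a6c, Ms4a6d and Ms4a7) passed for any mimic by limma, edgeR or DESeq2, beside 0.0739% of genes for miR-7a, 0.0407% for miR-29a and 0.0081% for miR-146a. At an unadjusted limma p under 0.05 there was 1 of the 3 for each mimic, Ms4a7 with miR-7a and miR-29a and Ms4a6d with miR-146a, beside 5.51%, 6.56% and 11.1% of all genes. Ms4a14 and Ms4a4c are descriptions here, since each interaction holds the scramble libraries in which they had been singled out. The LPS response of Ms4a14 differed from that in scramble by -1.27 ± 0.38 on the log2 scale in miR-7a cells and by -1.47 ± 0.39 and -1.47 ± 0.41 in miR-29a and miR-146a cells. That of Ms4a4c differed by 3.07 ± 1.12 in miR-7a cells. All 3 estimates share the scramble libraries, VEH_scramble replicate 1 included. Ms4a7 gave -0.79 ± 0.27, -0.73 ± 0.3 and -0.6 ± 0.32 (limma adjusted p = 0.658, 0.693 and 0.497). For Ms4a6d the estimate with miR-146a was -0.64 ± 0.3 (limma adjusted p = 0.443). On simulated counts of the same depth the interaction fit with miR-7a recovered 14.9% of genes with a 2-fold difference in response and 92.1% of those with a 4-fold difference.

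Among the other Ms4a genes, Ms4a4a alone passed the count filter in any comparison. In miR-146a cells it fell under LPS from 11.8 ± 5.28 to 1.85 ± 1.07 CPM (log2 fold change -2.49 ± 0.49, limma adjusted p = 0.0103). In scramble and miR-7a cells it passed the filter through its VEH libraries alone, so that its values are a description, at 3.81 ± 1.77 CPM under VEH and 0.568 ± 0.468 under LPS with scramble and at 5.09 ± 2.01 and 0.728 ± 0.152 with miR-7a. With miR-29a it stood at 0.926 ± 0.782 CPM under VEH and 0.0695 ± 0.139 under LPS and was not tested. Against scramble, Ms4a4a passed in no comparison with a mimic where it could be tested, with log2 fold changes of 2.19 ± 0.78 for miR-146a under LPS and of 0.57 ± 0.41 for miR-7a, -2.39 ± 0.56 for miR-29a and 1.38 ± 0.37 for miR-146a under VEH (limma adjusted p = 0.174, 0.588, 0.207 and 0.0657). Ms4a1 and Ms4a2 averaged 0.0175 and 0.0214 CPM, and Ms4a10 and Ms4a12 had no count.

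Of the genes around the MS4A proteins, Trem2, the lipid receptor of microglia, fell under LPS in scramble cells from 391 ± 71.1 to 149 ± 14.9 CPM (log2 fold change -1.37 ± 0.16, limma adjusted p = 0.000304). Of 16 Trem2 and Alzheimer risk genes, 5 fell in scramble, 4 in miR-7a, 6 in miR-29a and 3 in miR-146a cells, beside 8.32%, 3.99%, 13.7% and 1.52% of all genes that passed as lower. Those that fell in scramble cells were Trem2, Apoe, a lipid carrier (-1.27), the receptor Cd33 (-1.23), the Trem2 adaptor Tyrobp (-1.1) and the transcription factor Spi1 (-0.75). Trem2, Apoe and Tyrobp also fell with each mimic, Cd33 with miR-7a and miR-29a, and Spi1 and the lipid phosphatase gene Inpp5d (-0.88) with miR-29a. Plcg2, a signalling phospholipase, rose in miR-146a cells (0.51). With miR-29a against scramble under LPS, Apoe, Cd33 and Tyrobp were lower (-0.77, -0.86 and -0.57). The median log2 fold change of this list under LPS was -0.05, -0.18, -0.21 and -0.06 in scramble, miR-7a, miR-29a and miR-146a cells, beside 0.01, 0.02, -0.01 and 0 over all genes tested.

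Of 20 type I interferon-stimulated genes, 18 were tested in scramble, miR-7a and miR-29a cells and 16 in miR-146a cells. All of these rose under LPS, beside 9.52%, 2.78%, 12.8% and 3.09% of all genes that passed as higher. No VEH library reached the filter's minimum for 5 of them in scramble, 0 in miR-7a, 3 in miR-29a and 3 in miR-146a cells, and genes admitted through the LPS libraries alone had to differ. Of the others, 13 of 13, 18 of 18, 15 of 15 and 13 of 13 rose. Among these 13 in scramble cells the changes ran from 0.84 for Bst2 and Stat2 to 4.4 for Oasl2. Against scramble under LPS, 6 of 18 were higher with miR-7a (Cmpk2, Rsad2, Ifi44, Ddx58, Ifit2 and Ifit3), beside 1.6% of all genes. With miR-29a 10 of 18 were higher, Cmpk2, Rsad2, Ifi44 and Ifit2 among them, beside 2.17% of all genes. With miR-146a 0 of 18 passed in either direction by limma, 7 of 18 had an unadjusted p under 0.05, beside 17.5% of all genes, and their median was -0.43. Under VEH, Ifit2 was higher with miR-7a (1.85). Of 5 Fc receptor subunits, Fcgr1, the high-affinity IgG receptor, rose under LPS with each transfection (log2 fold change 1.43 ± 0.14 in scramble, limma adjusted p = 9.34e-05). Fcgr4 rose in miR-7a cells (1.24), Fcgr3 fell in scramble, miR-7a and miR-29a cells (-0.68, -0.61 and -1.35), and Fcgr2b, the inhibitory receptor, fell in miR-146a cells (-0.52). Under LPS, Fcgr2b and Fcgr3 were lower with miR-29a than with scramble (-0.77 and -0.91), and under VEH Fcgr2b was higher with miR-146a (0.68). Of the related tetraspan genes Tmem176a and Tmem176b, Tmem176b rose in scramble (0.62 ± 0.15, limma adjusted p = 0.0149) and miR-29a cells (0.63 ± 0.17, limma adjusted p = 0.0185).

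The order of the groups by mean CPM differed between members. LPS_miR-7a was the highest group for Ms4a4c, Ms4a6c, Ms4a6d and Ms4a7, LPS_miR-146a for Ms4a14 and LPS_miR-29a, with 2 uncertain values, for Ms4a6b. For Ms4a6c the libraries of neighbouring groups in this order overlapped except between VEH_scramble and VEH_miR-29a, the lowest. For Ms4a14 they overlapped except between LPS_scramble and LPS_miR-29a, and for Ms4a4c except between LPS_miR-7a and LPS_miR-29a. For Ms4a6b, Ms4a6d and Ms4a7 all neighbours overlapped. By the Pearson correlation of the 8 group means of log2(CPM + 1), over 10054 genes of at least 5 CPM, the genes most like Ms4a6c were Map2k4 (0.969), Gabpb1 (0.965) and Cyfip1 (0.951). For Ms4a6d they were March6 (0.981), Map2k4 (0.972) and Gabpb1 (0.967). Slc41a2 (0.956), Abcd3 (0.954) and Hace1 (0.95) were most like Ms4a7, and Kif3b, Slc4a1ap and Dnajc21 (each 0.963) most like Ms4a14. Between 27 and 130 genes exceeded 0.9 for each of these members, and the points share the 32 libraries.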

How the data were processed

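Per the labels and the study's methods, BV-2 RNA was depleted of ribosomal RNA, made into total RNA libraries, sequenced in single-end reads of 75 bases and counted against GRCm38. The authors deposited estimated counts per gene, which are not normalized, and their decimal marks were missing. For each gene the marks were restored here from its level across libraries and its digits, which gave 27.9% of 590874 values lost decimals. A value was uncertain where its most probable reading had a posterior under 0.9 (1.26%), and genes with one were left out of comparisons that used it. On simulated data 99.9% of values were restored right, but these were easier to restore than the deposited values, with 0.138% uncertain. Library totals were 1163140 to 20854891 counts. CPM used TMM sizes over 32 libraries, and CPM per kb the summed length of all annotated exons of a gene or, as an alternative, that of its coding transcript. Each comparison was fitted by limma-voom on its own groups after filterByExpr and TMM (R 4.3.3, limma 3.58.1, edgeR 4.0.16, DESeq2 1.42.0), with Benjamini-Hochberg adjustment over all genes tested. P-values measure the spread between libraries. Where the groups of a member are said not to overlap, no share of all genes without overlap stands beside it. Counting intervals and the floor of 3 counts cover counting error only. In scramble cells the LPS fit recovered 50.7% of simulated 2-fold changes over 13527 genes.

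The rule named the 6 members in every comparison, other Ms4a genes where one passed the filter, and genes of fixed lists where called, and interferon-stimulated genes under LPS are given mostly by count. The members and lists were chosen with earlier results of these data known. Which values of Ms4a14 and Ms4a4c are descriptions was settled after the fits were seen. Replicate numbers paired libraries, with every same-numbered correlation of deviations over 0.1, for LPS against VEH in scramble (0.243 to 0.34), miR-29a (0.225 to 0.414) and miR-146a (0.102 to 0.359) cells, for the mimics under LPS (0.226 to 0.611) and for miR-29a under VEH (0.178 to 0.483). Alternatives were edgeR and DESeq2 on rounded values, other size factors, no filter, a replicate block, stricter or no restoration, protein-coding genes alone, all libraries in 1 fit and leaving out each library.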

Additional observations from a re-analysis of the deposited data

Results flagged for a closer look

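Over 48 groups of 4 libraries (6 members in 8 groups), 2 held a library whose gap to the nearest other exceeded Dixon's 95% critical value. Chance gives this in about 1 of 20 groups. Ms4a14 in VEH_scramble replicate 1 stood at 12.9 CPM, with the next library at 5.46 CPM and a gap of 0.903 of the range. Ms4a4c in VEH_miR-7a replicate 1 stood at 0.538 CPM, or 3 counts, with the other 3 libraries at 0.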

How the results depend on the processing

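Counts of members called in this paragraph include Ms4a14 and Ms4a4c where the report gives them as descriptions, 3, 4, 4 and 1 in all for LPS in scramble, miR-7a, miR-29a and miR-146a cells. Without restored decimal marks the members called were 0, 2, 0 and 0 for LPS in scramble, miR-7a, miR-29a and miR-146a cells, and 0 for miR-29a under LPS and for miR-7a under VEH, and Ms4a7 in scramble turned to -0.78. With all 32 libraries in 1 fit there were 2 for LPS in miR-146a cells and 2 for miR-29a under LPS, and DESeq2 also gave 2 for the latter. With the replicate block there were 2 for LPS in miR-146a cells and 2 for miR-29a under LPS, where the numbers pair the libraries, while calls over all genes went from 555 to 810 of 12050 and from 629 to 1278 of 13091. In miR-7a cells, where they do not, the block gave Ms4a7 a log2 fold change of 0.45 and a limma adjusted p of 0.0425. The block added Ms4a7 to the calls for LPS in miR-7a, miR-146a and miR-29a cells and Ms4a14 for miR-29a under LPS, and changed no other member's call. Leaving out 1 library gave 2 to 4 members for LPS in scramble, 1 to 4 in miR-7a, 4 to 5 in miR-29a and 0 to 1 in miR-146a cells. The 1 in miR-7a cells, without VEH_miR-7a replicate 1, was Ms4a4c, given above as a description. It gave 1 to 2 for miR-29a under LPS, 2 without LPS_scramble replicate 2, and 0 to 2 for miR-7a under VEH, 2 without VEH_scramble replicate 1. The cause of these changes was not tested. Over all genes, counts of calls moved by over 1.5 times in 11 of 13 comparisons with DESeq2, 10 with the block, 12 without restoration and 3 with no filter, so the shares of all genes printed beside the members depend on the setting. For LPS in miR-7a cells they went from 802 of 11851 to 7855 of 25696 with no filter, 1286 with DESeq2 and 1744 with the block. For miR-7a under VEH 26 calls became 261 with DESeq2 and 343 with the block, and for miR-146a under LPS 292 became 670 and 1302. The readings that keep or change uncertain values and the length of the coding transcript were added after seeing the data. Depth limits Ms4a4c and Ms4a6b most, since 3 counts stood for up to 3.74 CPM.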
